A study of Saccharomyces cerevisiae with 8 samples.

Results

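The glycine response of a yeast strain without the transcription factor gene BAS1 was compared with that of its parent strain BY4741, on 4 of the 8 spotted arrays of the study: bas1 replicates 1 and 2 against BY4741 replicates 1 and 3, chosen by array title. On each array channel 1 held RNA of a culture to which 10 mM glycine had been added and channel 2 RNA of the same strain without it, both on minimal medium, and cells were taken from steady state to early log phase. The bas1 strain was Y06015 of the yeast deletion set. BY4741, the parent of that set, lacks working copies of HIS3, LEU2, MET17 and URA3, so all strains share these defects. The value of a gene on an array was the deposited log2 channel ratio, averaged over the spots of the gene and centred on the median gene of that array. A strain difference below is the mean of the bas1 arrays minus the mean of the BY4741 arrays on this log2 scale.

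Glycine is a source of one-carbon units. The mitochondrial glycine cleavage enzyme breaks it down and passes a carbon to folate, and folate enzymes carry that carbon to purines, to thymidylate and to methionine. Bas1 is a Myb-type activator that works together with Bas2 (Pho2) on genes of purine and histidine synthesis and on several one-carbon genes, and the comparison asks how far the response of these genes to glycine differs when Bas1 is missing.

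Some properties of the arrays touch every result. The title of BY4741 replicate 3 also carries the name of zap1, the zinc regulator gene of yeast, so 1 of the 2 parent arrays has a doubtful label; without it no gene passed the test either, and the medians given below for ADE and one-carbon genes were 1.97 and 0.67. The sources used here do not give the dyes, nor whether the deposited ratio is channel 1 over channel 2 or the reverse. The direction of the ratio is thus not known, and BY4741 replicate 1 and bas1 replicate 1 correlated at r = -0.304 over spots. Signs are therefore given as deposited, and lists are also given with the sign of the bas1 arrays turned. The arrays of a strain were not its closest neighbours: the bas1 arrays correlated with each other at r = 0.05, while bas1 replicate 1 correlated with bas2 replicate 1 at 0.577 and bas1 replicate 2 with bas2 replicate 2 at 0.502. Each of these bas1 and bas2 pairs shares a title form. Titles write steady for replicate 1 of BY4741, bas1 and bas2, and ss for BY4741 replicate 3 and replicate 2 of bas1 and bas2. The first and second arrays below are split by the same form, and what it stands for was not tested. bas1 replicate 2 had no value at 5465 of its 12800 spots (42.7%), against 71 to 99 spots on the other 3 arrays, and its genes had an SD of 2.07, against 0.38 to 0.97. Of 5539 named genes, 3429 had a value on all 4 arrays. The 2080 genes with values on the other 3 arrays but none on bas1 replicate 2 had a median first-array difference of -0.33, against 0.22 for the 3429, so genes with 4 values were not a neutral sample. The ratio of BAS1 itself, -0.09 and -0.38 in BY4741 and -0.69 and -0.39 in bas1, does not check the deletion, because both channels of an array held the same strain. Without centring, the median difference over all genes was -0.65 in place of 0.11 and every difference was lower by the same amount. The ratios describe RNA of whole cultures, in which fewer cells of a kind and less RNA per cell cannot be told apart.

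No gene of 3429 (0.0%) passed limma's moderated test at an adjusted p under 0.05, and the smallest adjusted p was 0.350. At an unadjusted p under 0.05 the test picked 284 genes with the higher ratio in bas1 (8.28%) and 199 with the lower ratio (5.8%). The arrays of the strains did not overlap, with bas1 higher, for 1076 genes (31.4%), and with bas1 lower for 769 genes (22.4%). The median difference over the 3429 genes was 0.11, and 1859 of them (54.2%) had a difference above 0. Counts of list members below are to be read against these shares. All values that follow are descriptions of 4 arrays, and no named gene passed the test.

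Of the 4 glycine cleavage genes, GCV1, GCV2 and GCV3 had negative ratios on both BY4741 arrays and a higher value on each bas1 array that measured them, while LPD1 overlapped. GCV1 (YDR019C), the T protein, stood at -6.27 and -5.27 on the BY4741 arrays and at -1.17 on bas1 replicate 1, with no value on bas1 replicate 2. GCV3 (YAL044C), the H protein, stood at -2.76 and -2.73 in BY4741 and at -0.70 on bas1 replicate 1, again with no value on the second bas1 array. GCV2 (YMR189W), the P protein, stood at -1.65 and -0.64 in BY4741 and at 0.78 and -0.10 in bas1, a difference of 1.49 ± 0.71 (SE, limma fit). The groups of GCV2 did not overlap, and for GCV1 and GCV3 the value on bas1 replicate 1 was the least negative of the 3. LPD1, the dihydrolipoamide dehydrogenase that glycine cleavage shares with other complexes, overlapped between strains at -0.24 and -0.12 against 0.06 and -0.22. The difference within the first arrays was 5.09 for GCV1, 2.06 for GCV3, 2.44 for GCV2 and 0.30 for LPD1, so all 4 members were higher in bas1 there, beside 2756 of 5519 genes (49.9%). The 2 members with 4 values had a median difference of 0.80, which was 0.51 without bas1 replicate 1 and 0.51 without BY4741 replicate 1.

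SHM2 (YLR058C), the cytosolic serine hydroxymethyltransferase that interconverts serine and glycine, had the largest strain difference of the folate list. Its ratio was -3.08 and -1.47 in BY4741 and 1.41 and 0.79 in bas1, a difference of 3.37 ± 0.68, with opposite signs in the strains on all 4 arrays. ADE3, the cytosolic C1-tetrahydrofolate synthase, stood at -2.73 and -0.80 in BY4741 and at 0.84 and 0.48 in bas1, a difference of 2.42 ± 0.71. MET6, the methionine synthase that uses methyl-tetrahydrofolate, stood at -1.98 and -1.32 against 0.76 and 0.54, a difference of 2.30 ± 0.41. These 3 genes and SHM1, the mitochondrial serine hydroxymethyltransferase, at -1.46 and -0.42 against 0.96 and 0.46, were negative on both BY4741 arrays and positive on both bas1 arrays. Over all genes that pattern was met by 410 of 3429 (12.0%). MET13, a methylenetetrahydrofolate reductase, did not overlap either, at -1.29 and -0.49 against 0.37 and -0.18, a difference of 0.99 ± 0.48.

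The other folate genes with 4 values overlapped between the strains or were lower in bas1. FAU1, a 5-formyltetrahydrofolate cyclo-ligase, stood at 0.85 and 0.37 in BY4741 and at 0.29 and -0.64 in bas1, a difference of -0.79 ± 0.48. CDC21, the thymidylate synthase, stood at 0.43 and 0.37 against 0.34 and -0.92. FOL2, DFR1, MET7, FOL1 and RMA1, which make or reduce folate or add glutamates to it, had differences from -0.37 to 0.47, and the arrays of the strains overlapped for each. MTD1, MET12, MIS1 and FOL3 had no value on bas1 replicate 2. MTD1, the cytosolic methylenetetrahydrofolate dehydrogenase and a known Bas1 target, stood at -0.29 and -1.17 in BY4741 and at -0.02 on bas1 replicate 1. MET12, another methylenetetrahydrofolate reductase, stood at -1.11 and -0.06 against 0.49, a first-array difference of 1.61, and MIS1, the mitochondrial C1-tetrahydrofolate synthase, at -0.90 and -0.01 against 0.04. These 3 genes were above both BY4741 arrays on the bas1 array that measured them, and FOL3, at 0.12 and 0.24 against 0.02, was below both. Of the 20 one-carbon genes (glycine cleavage and folate lists together), 14 had 4 values, and of these 10 were higher and 4 lower in bas1. Their arrays did not overlap for 6 with bas1 higher and 2 with bas1 lower, and 4 had an unadjusted p under 0.05, all higher. The median difference of the 14 was 0.46, beside 0.11 over all genes, and the 12 folate genes alone gave the same 0.46. The first arrays carried it: 15 of 20 were higher in bas1 there with a median of 1.23, 10 by 1 or more, beside 21.5% of all genes, and 0 lower by 1 or more, beside 24.0%. Within the second arrays 7 of 14 were higher, beside 49.8% of all genes, with a median of 0.01. The median difference was 0.94 without bas1 replicate 2, 0.0042 without bas1 replicate 1, and -0.31 without centring, beside -0.65 over all genes. With both bas1 arrays turned in sign the median was 0.24, beside -0.16 over all genes.

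**Figure D1:**
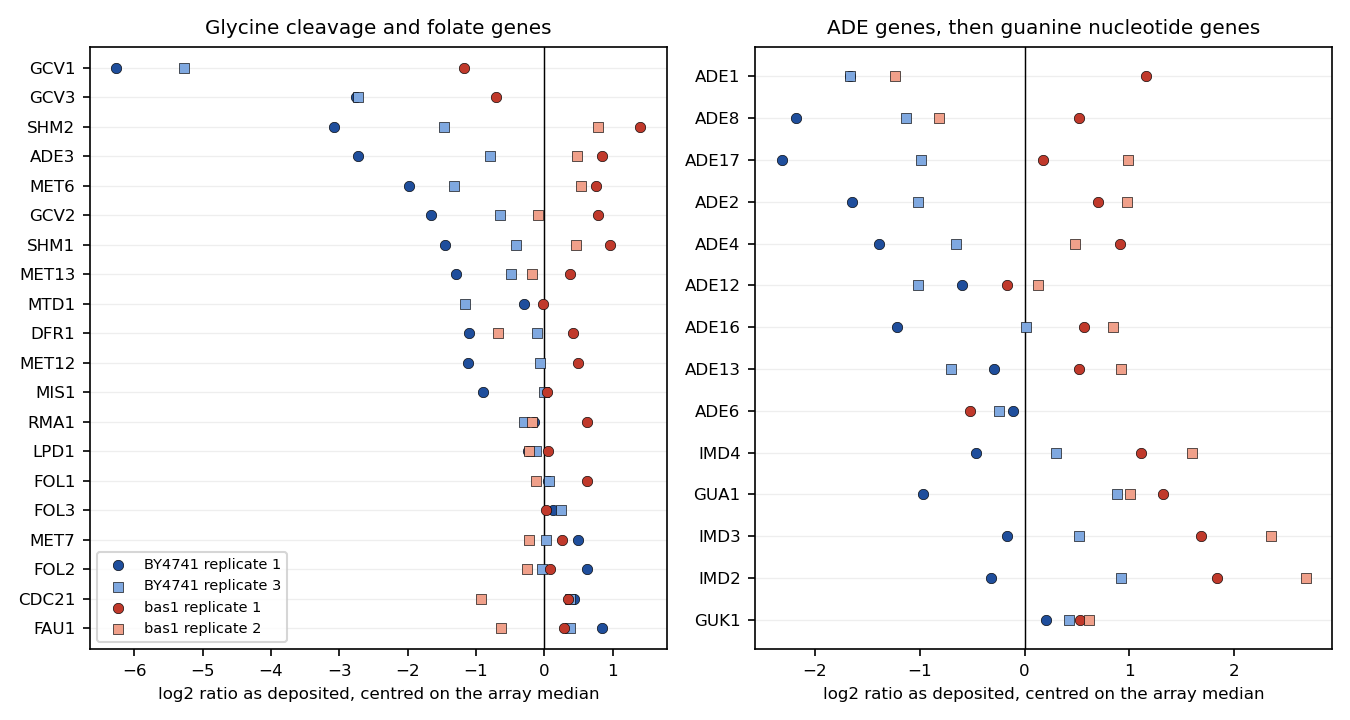
Centred log2 ratio (x axis) of glycine cleavage and folate genes (left) and of ADE and guanine nucleotide genes (right), 1 point an array, circles for replicate 1 of a strain and squares for the other array, blue for BY4741 and red for bas1. The bas1 points of SHM2, ADE3 and MET6 lie right of 0 and the BY4741 points left of it, while for FAU1 and CDC21 at the bottom both bas1 points lie left of the BY4741 points, and GCV1 and GCV3 lack a point for bas1 replicate 2; on ADE1 the BY4741 points fall on each other.

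The deletion strain of the partner factor gave other values for some of these genes. In bas2, GCV1 stood at -5.45 on the array that measured it, GCV3 at -3.48 and -3.56, GCV2 at -3.72 and -2.29, and SHM2 at -3.73 and -2.995. MTD1 stood at -1.93 and -4.46 in bas2. These 9 bas2 values were all more negative than bas1 replicate 1. For bas2 replicate 1 the title says bas2 but the source name says BY4741, so its values carry that doubt. The purine gene ADE2 stood at -1.31 and -0.35 in bas2, and ADE13 at -0.80 and -0.34, below both bas1 values in each case. Other genes described below were above both BY4741 arrays in bas2 as in bas1. Among them, the threonine aldolase gene GLY1 stood at 1.02 and 1.14 in bas2. The siderophore transporter genes ARN2 and ENB1 stood at 2.13 and 1.85 and at 1.90 and 2.07 there. No test of bas1 against bas2 was made.

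Enzymes that make or use serine and glycine were mixed. GLY1, the threonine aldolase that makes glycine from threonine, stood at -1.10 and 0.01 in BY4741 and at 1.53 and 1.43 in bas1, a difference of 2.03 ± 0.49. SER1, the phosphoserine aminotransferase, stood at 0.15 and -0.25 against 0.57 and 0.80, a difference of 0.74. SER3, which catalyses the first step of serine synthesis, was positive on all 4 arrays, at 2.03 and 0.96 in BY4741 and 1.24 and 2.03 in bas1, and its copy SER33 likewise overlapped, at 1.17 and 0.30 against 0.79 and 0.36. AGX1, which makes glycine from glyoxylate, CHA1, a serine and threonine deaminase, and SER2, the phosphoserine phosphatase, had no value on bas1 replicate 2. SER2 was the one of these with a large first-array difference, 2.54 on bas1 replicate 1 against 0.46 on BY4741 replicate 1, or 2.08. Of the 4 genes with 4 values 3 were higher in bas1, with a median difference of 0.44 that became -1.12 with both bas1 arrays turned, and that ran from 0.07 without BY4741 replicate 3 through 0.69 without bas1 replicate 1 to 0.81 without BY4741 replicate 1.

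The ADE genes, which build purines from the beginning of the pathway, separated the strains on all 4 arrays. All 8 members with 4 values were higher in bas1 and none overlapped, beside 31.4% of all genes, and their median difference was 1.57 beside 0.11. It held within each pair of arrays, at 2.30 over the 9 members of the first arrays and 1.14 within the second. ADE2, the phosphoribosylaminoimidazole carboxylase, stood at -1.65 and -1.02 in BY4741 and at 0.70 and 0.98 in bas1, a difference of 2.17 ± 0.51. ADE17, which carries out the last steps to inosine monophosphate, stood at -2.32 and -0.98 against 0.17 and 0.99, the last on 1 spot, a difference of 2.23 ± 0.67. ADE4, the first enzyme of the pathway, stood at -1.39 and -0.66 against 0.91 and 0.48, a difference of 1.72 ± 0.44. These genes and ADE13, adenylosuccinate lyase, at -0.29 and -0.70 against 0.52 and 0.92, were the 4 of 8 with opposite signs in the strains.

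The other ADE genes had a smaller difference, or bas1 arrays that disagreed. ADE1 stood at -1.66 and -1.67 in BY4741 and at 1.16 and -1.24 in bas1, so its difference of 1.62 ± 0.83 rested on bas1 replicate 1. ADE8 had the same shape, -2.18 and -1.14 against 0.52 and -0.81, a difference of 1.51 ± 0.64. ADE16, the near copy of ADE17 in function, stood at -1.21 and 0.02 against 0.57 and 0.84. ADE12, which turns inosine monophosphate towards adenylate, stood at -0.59 and -1.02 against -0.17 and 0.13, a difference of 0.79 ± 0.38. ADE6 was the exception: it had no value on bas1 replicate 2, and bas1 replicate 1 at -0.52 was below the BY4741 arrays at -0.11 and -0.25. No spot was named for ADE5,7. The size depended on the setting: the median was 2.27 with arrays scaled to a common spread, 0.80 without centring, where the median over all genes was -0.65, 0.66 with both bas1 arrays turned and 0.88 with bas1 replicate 1 alone turned. ADE1, ADE2, ADE4, ADE8, ADE12, SHM2, SHM1, ADE3, MET6, MET13 and GCV2 kept a positive difference under all 16 alternative settings, sign turns included. ADE17 did so under the 15 in which it had a value. So did LEU2, of which all strains lack a working copy, under all 16. Some of these settings could not change a sign, because they leave the difference of a gene as it is. They are the bas1 and BY4741 arrays alone, either bas2 array left out, array weights, the replicate block and the spot filter. Turning both bas1 arrays could not do so either for ADE1, ADE12 and ADE8, whose bas1 means lay near 0, at -0.04, -0.02 and -0.15. No setting turned the BY4741 arrays, and turning the arrays of both strains would reverse the sign of every difference.

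The guanine nucleotide genes had another shape, with ratios on either side of 0 in BY4741 for 4 of 5 and positive ratios on both bas1 arrays for all 5. IMD2, an inosine monophosphate dehydrogenase, stood at -0.32 and 0.92 in BY4741 and at 1.84 and 2.68 in bas1, a difference of 1.96 ± 0.61. IMD3 stood at -0.17 and 0.52 against 1.68 and 2.35, and IMD4 at -0.46 and 0.30 against 1.11 and 1.60, with differences of 1.84 ± 0.46 and 1.43 ± 0.45. The IMD genes are close copies of each other, so spots of one may also bind RNA of another. GUA1, the guanosine monophosphate synthase, stood at -0.97 and 0.88 against 1.32 and 1.01, and GUK1, the guanylate kinase, at 0.20 and 0.43 against 0.53 and 0.61. All 5 were higher in bas1 without overlap, with a median difference of 1.43, which became -1.28 with both bas1 arrays turned and 0.12 with the first alone turned. The bas2 arrays were positive for the same genes, with IMD2 at 1.58 and 2.11 and IMD3 at 1.40 and 1.62.

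Purine salvage and uptake genes were higher in bas1 for 9 of 11, with a median difference of 0.91. FCY2, the purine and cytosine permease, stood at -1.61 and -0.37 in BY4741 and at 1.36 and 1.26 in bas1, a difference of 2.30 ± 0.54. ADO1, the adenosine kinase, had a difference of 1.35 ± 0.46. GUD1, the guanine deaminase, and HPT1, the hypoxanthine-guanine phosphoribosyltransferase, had differences of 2.17 ± 1.64 and -1.85 ± 1.08 that rested on bas1 replicate 2, which stood at 3.34 for GUD1 and -2.89 for HPT1. The median of the salvage list was -0.43 with both bas1 arrays turned.

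Genes known as Bas1 targets, most of which are also in the lists above, were higher in bas1 for 12 of the 14 with 4 values, and all 12 did not overlap. Their median difference was 1.5, 8 of 14 had opposite signs in the strains with bas1 positive, beside 12.0% of all genes, and 7 had an unadjusted p under 0.05. Within the first arrays 16 of 18 measured members were higher in bas1. The median was 0.99 without bas1 replicate 1, and 0.82 with both bas1 arrays turned, with 11 of 14 members higher. The 2 exceptions were GLN1, the glutamine synthetase, at 0.75 and 0.17 against -0.22 and 0.58, and HIS4. HIS4, a histidine synthesis enzyme on which Bas1 was first studied, stood at -1.31 and -0.91 in BY4741 and at 0.33 and -3.72 in bas1, so the 2 bas1 arrays lay on either side of the BY4741 values. Of the 5 histidine genes with 4 values 3 were higher in bas1, with a median difference of 0.08. That median depended on the arrays and their scale: it was 0.57 without bas1 replicate 2, 0.38 without BY4741 replicate 1, -0.06 without bas1 replicate 1, -0.14 without BY4741 replicate 3, and 1.12 with arrays scaled to a common spread, where all 5 were higher. HIS1, the first enzyme of that pathway, stood at -0.20 and -0.54 against 1.11 and 0.48, and HIS7 at -0.20 and -0.64 against 0.15 and 0.30. HIS5 overlapped, with a difference of -0.41.

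**Figure D2:**
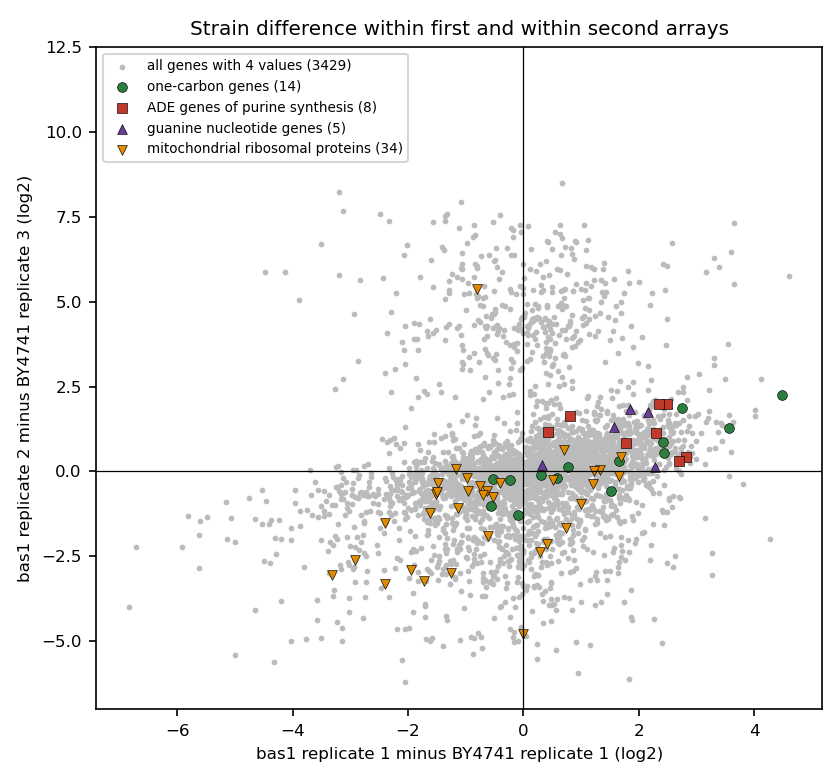
Each point is a gene with 4 values; the x axis is bas1 replicate 1 minus BY4741 replicate 1 and the y axis bas1 replicate 2 minus BY4741 replicate 3, both log2, with list members coloured. All ADE genes and guanine nucleotide genes lie right of and above the zero lines, mitochondrial ribosomal protein genes lie mostly below the horizontal line, and a separate cloud of genes lies high above the others on the y axis alone.

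How far the first and the second arrays gave the same strain difference can be seen across genes in the plot of the first-array against the second-array difference. Over 3429 genes the first-array and second-array differences had Pearson r = 0.21 and Spearman rho = 0.34, across genes of the same 4 arrays, which are not independent replicates. They had the same sign for 2221 genes (64.8%). The second-array differences were wider, with an SD of 2.11 against 1.44. A difference of 1 or more with the same sign within both pairs was met by 524 genes, 281 with bas1 higher (8.19%) and 243 with bas1 lower (7.09%). The high cloud belongs to bas1 replicate 2: 363 genes stood at 3 or higher on that array, and 133 of them (36.6%) rested on 1 spot there, against 203 of 2916 genes (6.96%) between -3 and 3. Those 363 genes had a median of -0.19 on bas1 replicate 1. On bas2 replicate 2, where 219 of them had a value, their median was 2.19. Low values on bas1 replicate 2 rested on 1 spot more often still: 91 of 150 genes at -3 or lower (60.7%).

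Lysine, arginine and methionine genes were the other amino acid lists examined, and most members with 4 values were higher in bas1 with the signs as deposited. LYS4, the homoaconitase of lysine synthesis, stood at -1.86 and -0.48 in BY4741 and at 0.57 and 0.66 in bas1, and LYS20 and LYS21, the homocitrate synthases, had differences of 1.55 and 1.45, with LYS2 at 1.41. Of 8 lysine genes with 4 values 7 were higher, with a median of 1.14, which became -1.10 with both bas1 arrays turned, where 2 of 8 were higher. All 5 arginine genes were higher without overlap, with a median of 1.12 (0.55 turned): CPA1, a subunit of carbamoyl phosphate synthetase, stood at -0.73 and -0.53 against 0.90 and 0.99, and ARG1, ARG3 and ARG8 had differences of 1.55, 1.12 and 0.85. Of the 22 methionine and sulfate genes only 8 had 4 values. They were higher in 7 of 8, with a median of 1.05, or 0.67 without bas1 replicate 1. With both bas1 arrays turned it was -0.11, with 3 of 8 higher, beside -0.16 over all genes. Over all 22 on the first arrays 14 were higher, with a median of 0.56. The 8 were led by SAM1 and SAM2, the S-adenosylmethionine synthetases, at 1.55 and 1.44, SAH1, which clears S-adenosylhomocysteine, at 1.5, and CYS3, cystathionine gamma-lyase, at 1.35. The difference of CYS3 was 2.70 within the first arrays and 0.0002 within the second.

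Vitamin B6 and thiamine genes were mixed, with 6 of 10 higher and a median of 0.17 (1.07 turned). On the first arrays 17 of 21 were higher in bas1, while 3 of 10 were higher within the second. The median was -0.58 without bas1 replicate 1, 0.86 without bas1 replicate 2, -0.31 without BY4741 replicate 1 and 0.81 without BY4741 replicate 3. SNZ1, which takes part in vitamin B6 synthesis, was negative throughout, at -4.35 and -3.69 in BY4741 and -0.34 and -2.07 in bas1, a difference of 2.81 ± 0.72. PDC5, a pyruvate decarboxylase, stood at -2.28 and 0.27 against 0.89 and 1.71, a difference of 2.30. THI22 had a difference of -2.96 through BY4741 replicate 3 at 3.58, and THI6, a thiamine phosphate enzyme, one of -2.43 through bas1 replicate 2 at -4.94.

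Phosphate, iron and zinc genes had medians above that of all genes. Bas2 (Pho2) also serves the phosphate genes together with Pho4. Higher in bas1 were 11 of 14 phosphate genes, with a median of 1.10 (-0.15 turned, beside -0.16 over all genes). PHO12, an acid phosphatase, stood at -0.04 and 0.39 in BY4741 and at 2.20 and 2.48 in bas1, a difference of 2.16 ± 0.39. VTC4, the polyphosphate polymerase, stood at -0.92 and -0.46 against 1.28 and 1.48, and PHO8, the vacuolar alkaline phosphatase, at -1.06 and -0.51 against 0.90 and 0.98. PHO12 has near-identical copies among the acid phosphatases, so its spots may also bind their RNA. For GIT1, a glycerophosphoinositol permease, the difference of 2.03 ± 2.30 rested on bas1 replicate 2 at 3.38.

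Of 16 iron genes 13 were higher in bas1, with a median of 1.29 that was 0.65 without BY4741 replicate 1, and on the first arrays 22 of 25 were higher. ARN2, a siderophore transporter, stood at 0.24 and 0.31 in BY4741 and at 2.11 and 2.12 in bas1, and ENB1, the enterobactin transporter, at 0.11 and 1.79 against 2.76 and 3.49. ATX1, a copper chaperone for iron uptake, went the other way, at 3.37 and 0.45 against -1.10 and -0.43. FRE2, a ferric reductase, had a difference of 2.57 ± 2.01 with only bas1 replicate 2 apart, at 5.51. The median of the iron list was -0.05 with arrays scaled to a common spread and -2.24 with both bas1 arrays turned, so its direction depends on these choices. Of 12 zinc genes 11 were higher, with a median of 1.45 (-1.18 turned). ZRT2, the low-affinity zinc transporter, stood at -0.25 and -0.08 against 1.42 and 2.60, and ZPS1 at 0.33 and -0.09 against 2.34 and 5.50. ZRT1, the high-affinity transporter, and VEL1 had differences of 2.09 and 2.13 with only bas1 replicate 2 apart, at 4.09 and 4.01. The zinc median was 1.75 without BY4741 replicate 3, whose title names zap1, and 0.92 without BY4741 replicate 1.

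Of the general stress genes with 4 values, 10 of 22 were higher in bas1 and 12 lower, with a median of -0.22 that became 1.26 with both bas1 arrays turned and 0.45 with arrays scaled to a common spread. It was -0.10 without bas1 replicate 1, -0.42 without BY4741 replicate 1 and 0.06 without BY4741 replicate 3. Over all 39 on the first arrays 14 were higher, and 17 were lower by 1 or more, beside 24.0% of all genes, with a median of -0.93. PBI2, an inhibitor of vacuolar protease B, stood at 2.61 and -0.19 in BY4741 and at -2.40 and -5.60 in bas1, and HSP26, a small heat shock protein, at 0.00 and -1.37 against -4.03 and -3.38, a difference of -3.02 ± 0.87. HSP78, a mitochondrial chaperone, had a difference of -2.29, with 1 spot on bas1 replicate 2, and SSA4, an inducible Hsp70, one of 2.32. Ergosterol genes were higher for 16 of 22, with a median of 0.81 (-0.76 turned): ERG3, the sterol desaturase, had a difference of 1.54, and ERG13 and HMG2, enzymes of mevalonate synthesis, 1.31 each. IDI1, the isopentenyl diphosphate isomerase, was the opposite at 1.88 and 0.22 against -0.96 and -2.09.

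Mating genes were checked because BY4741 is an a strain. A ratio between 2 cultures of a strain gives no level, so the mating type itself is not checked by it. The 6 genes specific to a cells had a median difference of 0.30, from -1.29 for MFA1, an a-factor gene, to 1.29 for BAR1, the protease that degrades alpha factor, with STE2 at 0.63 and MFA2 at -0.59. With both bas1 arrays turned their median was -1.09, with arrays scaled to a common spread -0.01, and with an array left out between 0.10 without BY4741 replicate 3 and 0.50 without BY4741 replicate 1. Only 2 of 4 genes specific to alpha cells had 4 values, with a median difference of 2.40 (-1.94 turned, 1.05 without bas1 replicate 2, 3.74 without bas1 replicate 1). MF(ALPHA)1, an alpha-factor gene, stood at -0.33, 0.30 and 0.49 on the other arrays and at 6.89 on 1 spot of bas1 replicate 2, and SAG1 had a difference of 1.09. The mating response list had a median of 0.33 (-0.56 turned, -0.19 without bas1 replicate 1, 0.67 without bas1 replicate 2), with 7 of 11 higher, and 11 of 21 on the first arrays. PRM2, a pheromone-regulated membrane protein, stood out at -0.62 and -0.08 against 2.98 and 6.38, while AGA1, FIG1 and FUS3 had differences of 1.68, 1.00 and 0.90. That of FIG1 was -1.90 within the first arrays and 3.90 within the second. AGA1 and FUS3 had 0.35 and 0.13 within the second arrays. Of the parent markers, URA3 stood at -1.90 and -1.21 in BY4741 and at -0.20 and 3.46 in bas1, a difference of 3.19. LEU2 had a difference of 1.21 and HIS3 of 0.31, and MET17 had no value on bas1 replicate 2. The median of the 4 with BAS1 was 0.76, or 0.39 without bas1 replicate 1. All strains lack working copies of these markers, so genes without a working copy also had differences as large as 1.21 and 3.19. What their spots bound was not tested.

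**Figure D3:**
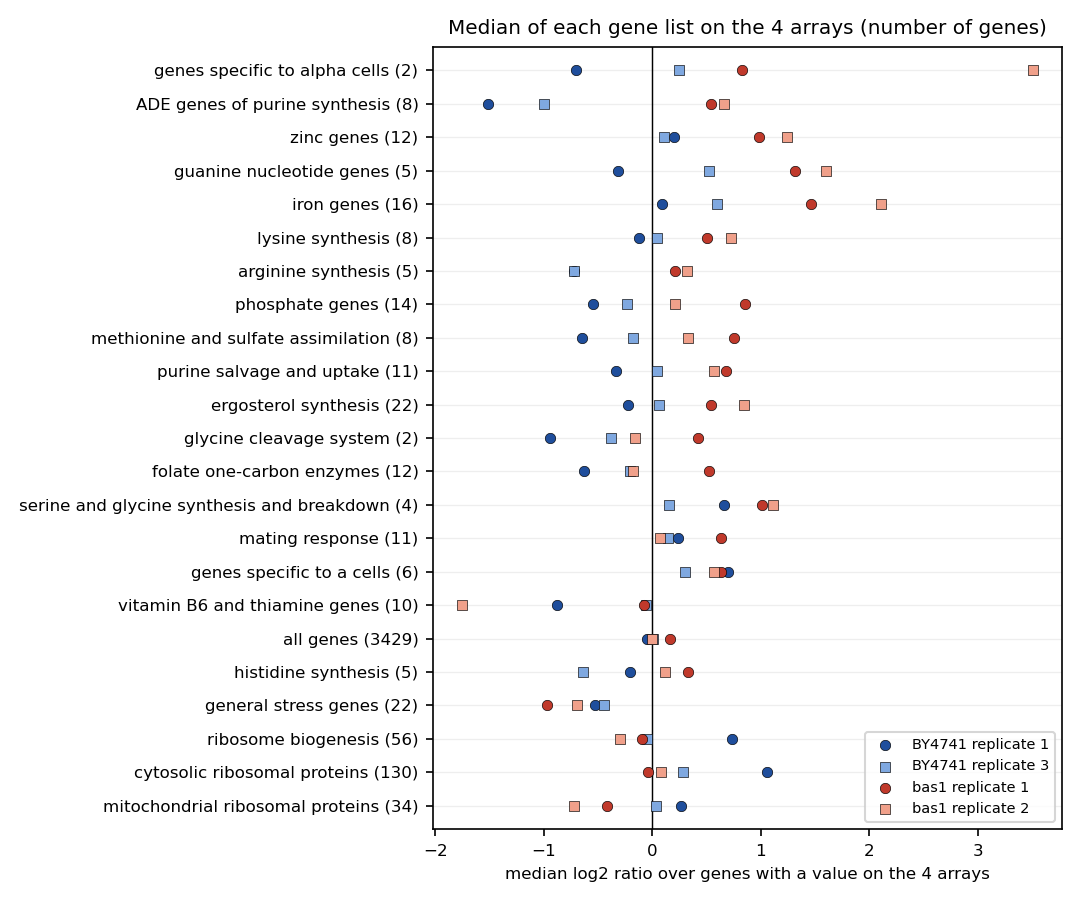
Median centred log2 ratio (x axis) over the members of each gene list (y axis, number of genes with 4 values in brackets), with circles for replicate 1 of a strain and squares for the other array, blue for BY4741 and red for bas1. The ADE list runs from -1.52 and -1.0 in BY4741 to 0.54 and 0.66 in bas1, and the ribosomal protein lists run from above 0 on BY4741 replicate 1 to near or below 0 on bas1.

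The lists of the ribosome had lower ratios in bas1. Of 130 genes for cytosolic ribosomal proteins 94 were lower in bas1, 66 without overlap, beside 22.4% of all genes, and the median difference was -0.63. On the first arrays 66 of 133 were lower by 1 or more, beside 24.0% of all genes. The test and the count within both pairs of arrays did not set this list apart. At an unadjusted p under 0.05 limma's test picked 4 of the 130 as lower and 1 as higher, beside 5.8% and 8.28% of all genes. By 1 or more within both pairs of arrays 4 were lower and 0 higher, beside 7.09% and 8.19%. By sign it did stand apart. No ribosomal protein gene of that list had the BY4741 arrays below 0 and the bas1 arrays above 0, beside 12.0% of all genes. The reverse was met by 39, beside 10.1% of all genes. The list median was 1.06 on BY4741 replicate 1 but 0.29 on BY4741 replicate 3, and -0.04 and 0.08 on the bas1 arrays, so most of the difference came from BY4741 replicate 1: without that array the median difference was -0.22, and without BY4741 replicate 3 it was -1.04. It was -0.72 with both bas1 arrays turned. RPL39 stood at 3.72 and -0.03 in BY4741 and at -1.76 and -1.38 in bas1. RPS30B, RPS10A and RPS10B had the same pattern, with differences of -3.02, -2.54 and -2.45 and BY4741 replicate 1 between 2.76 and 3.68. Ribosomal protein genes often come as near-identical pairs, whose spots may bind RNA of both.

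Of 34 mitochondrial ribosomal protein genes 25 were lower in bas1, 21 without overlap, with a median of -0.74 (0.65 with both bas1 arrays turned). MRPL24 stood at 1.60 and 0.22 in BY4741 and at -1.71 and -2.83 in bas1, a difference of -3.18 ± 0.69, and MRP13 at 1.34 and 0.14 against -1.57 and -2.45, a difference of -2.75 ± 0.59. MRP17 and RSM27 had differences of -2.86 and -2.47, and RSM27 had 1 spot on bas1 replicate 2. Of 56 ribosome biogenesis genes 40 were lower in bas1, with a median of -0.53 (0.05 turned). Their arrays did not overlap for 22 with bas1 lower and 12 with bas1 higher, beside 22.4% and 31.4% of all genes. At an unadjusted p under 0.05 limma's test picked 13 as lower and 6 as higher, beside 5.8% and 8.28% of all genes. The medians were -1.19 within the first arrays, over 80 genes, and -0.27 within the second, where 26 of 56 were higher. Leaving out an array gave -0.21 without BY4741 replicate 1, -0.85 without BY4741 replicate 3 and -0.92 without bas1 replicate 1. RRP36, an rRNA processing factor, stood at 2.77 and 0.43 in BY4741 and at -3.95 and -1.78 in bas1. NOP15, a factor of the large subunit, stood at 1.10 and 0.06 against -2.47 and -4.33, the last on 1 spot. NOP53 and NOC4 had differences of -2.77 and -2.73.

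Gene length moved with the ribosomal lists. The median coding length, introns counted, was 795 bases for cytosolic and 680 bases for mitochondrial ribosomal protein genes, against 1269 over all genes. Across genes, the ratio ran down with length in BY4741 (Spearman rho -0.25 and -0.17) and up with length in bas1 (0.13 on each array). In 5 classes of about equal size by length, the median strain difference was -0.41 among the shortest genes, -0.02, 0.45 and 0.58 in the next classes, and 0.15 among the longest. With the curve of ratio on length removed from each array, a setting added after the data were seen, the median was -0.17 for cytosolic and -0.39 for mitochondrial ribosomal proteins, beside 0.23 over all genes. In the same setting the ADE median was 1.64 and the one-carbon median 0.48, and ribosome biogenesis, whose genes had a median length of 1553 bases, stood at -0.69.

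**Figure D4:**
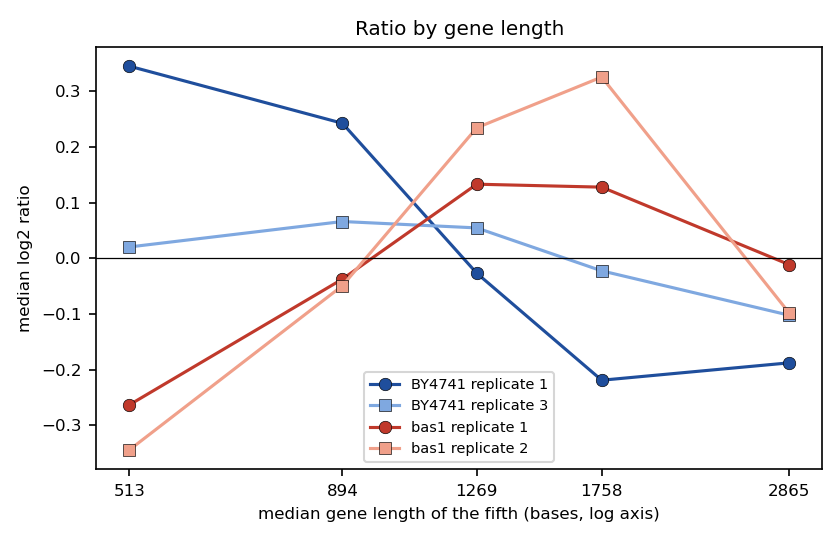
Median centred log2 ratio (y axis) of the genes in each of 5 classes of gene length (x axis, median length of the class in bases, log axis) on each array, circles for replicate 1 of a strain and squares for the other array, blue for BY4741 and red for bas1. From the shortest genes to the class with a median of 1758 bases the BY4741 replicate 1 line runs down from 0.35 to -0.22, and the bas1 lines run up from -0.26 and -0.34 to 0.13 and 0.33.

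The largest strain differences without overlap, and of at least 1 within both pairs of arrays, were taken from 266 candidates with bas1 higher and 239 with bas1 lower, 10 a side. The 10 higher in bas1 ranged from 4.27 to 5.49. With both bas1 arrays turned 8 of these 10 and all 10 of those lower in bas1 changed sign, ENT4 to -1.63 and TMA23 to 2.34. ENT4, an epsin-like protein, stood at -2.96 and -0.89 in BY4741 and at 0.68 and 6.43 in bas1, a difference of 5.49 ± 1.96. BSC5 stood at -4.77 and -1.23 against -0.16 and 4.51. Besides these and PRM2 the genes were YCR101C, MLG1, YAR062W, PIR5, RRT6, ECM27 and BSC1. All 10 were at 3.83 or higher on bas1 replicate 2 and between -0.48 and 2.98 on bas1 replicate 1, and 6 of the 10 rested on 1 spot of bas1 replicate 2.

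The 10 lower in bas1 were negative on both bas1 arrays, from -3.95 to -0.87 on replicate 1 and from -6.02 to -1.78 on replicate 2. TMA23, a nucleolar protein of ribosome biogenesis, stood at 3.06 and 0.01 in BY4741 and at -3.78 and -3.97 in bas1, a difference of -5.41 ± 1.23. KAR1, a component of the spindle pole body, stood at 1.89 and 0.28 against -2.43 and -5.34. SMD3 and YHC1, spliceosome proteins, had differences of -4.51 and -4.21, YRB2, a nuclear transport protein, one of -4.36, and PXR1 and FCF2, rRNA processing factors, of -4.36 and -4.24. TAF10, a subunit of TFIID and SAGA, had a difference of -4.12, and PBI2 and RRP36 were given above. On BY4741 replicate 3 these genes lay near 0, apart from the -0.19 of PBI2 within 0.43 above it, so the positive BY4741 values were those of replicate 1. Their median length was 675 bases, and 4 of 10 rested on 1 spot of bas1 replicate 2.

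**Figure D5:**
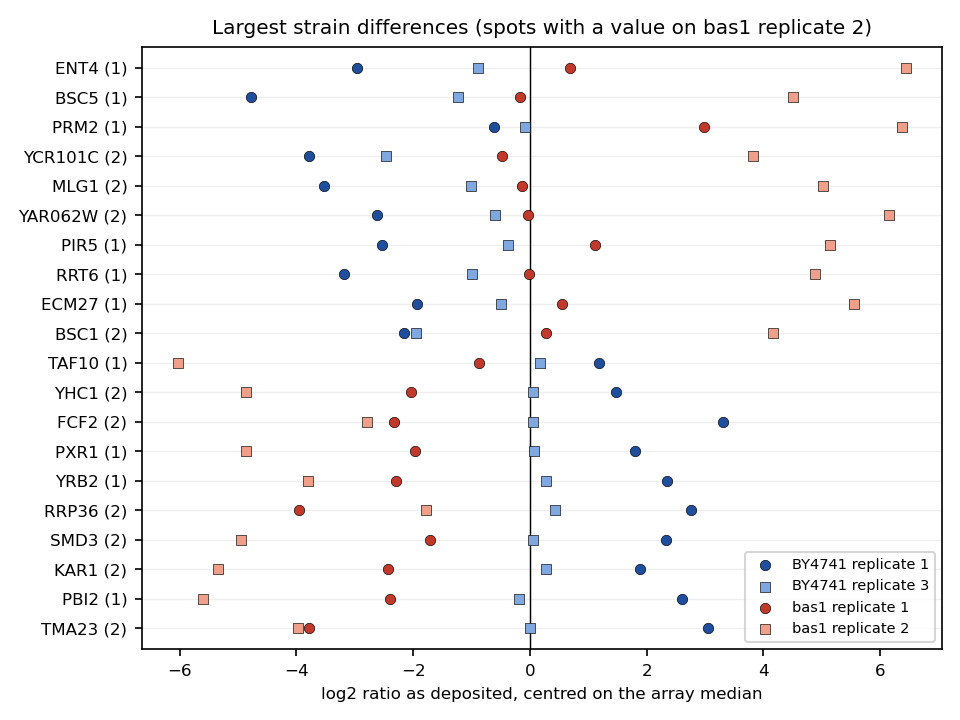
Centred log2 ratio (x axis) on each array of the 10 genes with the largest difference a side (y axis, number of spots with a value on bas1 replicate 2 in brackets), circles for replicate 1 of a strain and squares for the other array, blue for BY4741 and red for bas1. In the genes higher in bas1 only the light red squares, bas1 replicate 2, lie far to the right, apart from PRM2 at 2.98 on bas1 replicate 1, and in the genes lower in bas1 the light blue squares, BY4741 replicate 3, lie near 0.

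For genes without a value on bas1 replicate 2 the comparison is between 3 arrays. After GCV1, the largest first-array differences with bas1 higher were those of RTG1, a regulator of the retrograde response, at -2.41 and -1.45 in BY4741 and 1.33 in bas1, of YAR064W at -2.04 and -0.07 against 1.40, of YPK2, a protein kinase, at -3.42 and -0.62 against -0.04, and of PRM1, a membrane fusion protein, at -1.07 and 0.99 against 2.18. With bas1 lower they were those of YGR272C at 2.77 and 0.27 against -3.29, of RRP14 and LOC1, ribosome biogenesis factors, at 2.72 and 0.15 against -3.14 and at 2.98 and 0.58 against -2.85, of HSP12, a membrane-protecting stress protein, at 0.06 and -2.98 against -5.48, and of PHM8 at 2.88 and -0.72 against -2.60. GCV1 had the most negative BY4741 values of these 10 genes on both arrays.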

How the data were processed

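The deposited values are log2 channel ratios per spot. The scanner was a GenePix 4000B and the spot software GenePix Pro 3.0, per the labels; for dyes, direction, background handling and normalization, a statement is not given in the sources used here. Spot signals were not used here, so the number of arrays limits the precision. Of 12800 spots, 11138 carried 1 gene symbol and 1662 none; symbols were updated through RefSeq for 11128. Spots were averaged per gene (5539 genes) and arrays centred on their median gene (medians -0.78 to 0.65).

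The test of strain differences was the moderated, two-sided one of limma 3.58.1 (lmFit, eBayes; R 4.3.3). All 8 arrays entered the model with 5 strain means (BY4741, bas1, bas2, gcn4 and shm2), with 3 residual and 2.03 prior degrees of freedom. The gcn4 and shm2 strains had 1 array each and added nothing to the spread. Beyond bas1 and BY4741 the spread thus came from the bas2 pair alone, whose replicate 1 has a doubtful label. The bas1 and BY4741 arrays alone left 2 residual degrees of freedom. Benjamini-Hochberg adjustment ran over the 3429 genes with 4 values, threshold 0.05. Labels do not say that replicates were separate cultures, so p-values measure only the spread between these arrays. Replicate numbers come from titles; bas1 and BY4741 share only number 1.

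The members and 24 gene lists were chosen with earlier results of these data known. Named genes were all members of the glycine cleavage, folate, serine and glycine, ADE, guanine and marker lists, up to 10 a side by size of difference (no gene passed), 5 a side without a bas1 replicate 2 value, and up to 4 of each other list; promoter sequences were not used here. Lists were described by counts and medians. Alternatives were another array set, no centring, a common spread, a spot filter, array weights, each replicate left out, a block, and turned signs; another centring and a length correction were added after seeing the data.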

Additional observations from a re-analysis of the deposited data

Results flagged for a closer look

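Of 118 named genes with 4 values, 48 had opposite signs in the strains on all 4 arrays: 27 with BY4741 negative and bas1 positive, and 21 the reverse. The difference passed limma's adjusted threshold for none of them (adjusted p 0.35 or higher). Of them, 18 of the 27 and all 21 of the others were named for the size of their difference, so their number is not to be set against that of all genes. The pattern rests on the direction as deposited: with both bas1 arrays turned each of these genes has the same sign in both strains, and the difference keeps its sign for 14 of the 27 (1.17 for SHM2) and 5 of the 21.

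With bas1 positive, the differences were 3.37 for SHM2, 2.42 for ADE3, 2.30 for MET6 and 1.65 for SHM1 among one-carbon genes. Among purine genes they were 2.23 for ADE17, 2.17 for ADE2, 1.72 for ADE4, 1.22 for ADE13 and 2.30 for FCY2. Among amino acid genes they were 1.17 for HIS1, 0.65 for HIS7, 1.78 for LYS4, 1.41 for LYS2, 1.57 for CPA1, 1.55 for ARG1, 0.85 for ARG8 and 1.55 for SAM1. LEU2, of which all strains lack a working copy, had 1.21. The others were 2.07 for VTC4, 1.73 for PHO8, 2.17 for ZRT2, 1.31 for HMG2, 5.03 for PRM2, 5.49 for ENT4, 4.59 for PIR5, 4.27 for ECM27 and 4.27 for BSC1.

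With bas1 negative, the ribosomal and ribosome biogenesis genes had -3.02 for RPS30B, -2.54 for RPS10A, -2.45 for RPS10B, -3.18 for MRPL24, -2.86 for MRP17, -2.75 for MRP13, -5.41 for TMA23, -4.47 for RRP36, -4.36 for PXR1, -4.24 for FCF2, -3.98 for NOP15 and -2.77 for NOP53. The others were -4.97 for KAR1, -4.51 for SMD3, -4.36 for YRB2, -4.21 for YHC1, -4.12 for TAF10, -2.96 for THI22, -2.67 for ATX1, -2.58 for IDI1 and -2.29 for HSP78.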

How the results depend on the processing

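No gene passed the test in 15 of 16 alternative settings; without bas1 replicate 1 it picked 562 genes, 291 lower and 271 higher in bas1, so leaving out a replicate gave 0 to 562. For that case the lone bas1 array is assumed to vary like the other strains. Leaving out a replicate moved the ADE median between 1.39 and 1.97 and the one-carbon median between 0.0042 and 0.94. Without centring these medians were 0.80 and -0.31, where the median of all genes moved to -0.65; scaling arrays to a common spread gave 2.27 for ADE. With both bas1 arrays turned the ADE median was 0.66, and with replicate 1 alone turned 0.88. Genes with a difference of 1 or more within both pairs numbered 524, 229 with both bas1 arrays turned, 317 with replicate 1 turned, and 783 (57 higher, 726 lower) without centring. With the title form (steady or ss) as a replicate block, 0 genes passed limma's test, 506 had an unadjusted p under 0.05, and the medians stayed at 1.57 and 0.46. The strains bas1 and BY4741 share only number 1, so the replicate numbers do not pair the samples. The title form does match each bas1 array with a BY4741 array, as in the first and second arrays.

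Less the median of all genes, turning both bas1 arrays gave -0.96 for serine and glycine, -1.11 for guanine, -0.27 for purine salvage, -2.07 for iron, -1.02 for zinc, 1.42 for stress, -0.94 for lysine, -0.60 for ergosterol, 0.22 for ribosome biogenesis and 0.82 for mitochondrial ribosomal proteins, each a reversal. Turning replicate 1 alone gave -0.22 for serine and glycine, -0.26 for iron and 1.06 for stress. The common spread gave -0.19 for iron and 0.32 for stress, and leaving out a replicate gave -0.0774 to 0.727 for serine and glycine, the negative value without BY4741 replicate 3. Further changes of sign against all genes were 0.98 (common spread), 0.37 (without bas1 replicate 2), 0.26 (without BY4741 replicate 1), 0.35 and 0.16 (both or replicate 1 turned) and 0.21 (spot filter) for histidine, from -0.04; -0.54 without bas1 replicate 1 and -0.43 without BY4741 replicate 1 for vitamin B6 and thiamine, from 0.05; -0.15 (common spread), -0.01 (without bas1 replicate 2), -0.04 (without BY4741 replicate 3), -0.93 and -0.40 (turned) for a-cell genes, from 0.19; -1.78 (both turned) for alpha-cell genes; and -0.16 without bas1 replicate 1, -0.40 and -0.37 (turned) for the mating response. The causes were not tested. Of 118 named genes with 4 values, 77 changed sign with both bas1 arrays turned and 17 with replicate 1 turned; 32 passed the test without bas1 replicate 1.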
